A study of Homo sapiens with 6 samples.

Results

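MT1E is a single gene, metallothionein 1E (ENSG00000169715), and was taken as the row of the deposited table that carries that gene name, 1 of 13707 genes with complete values. It was chosen by its own level, which differed between the library sets C and K in these same counts and TPM, so its values are given below as a description without a test. Other listed genes with a type 1 or 2 metallothionein name serve as context. The material was MDA-MB-231, an established triple-negative breast cancer cell line of human origin, sequenced as mRNA libraries: 6 in all, C1 to C3 and K1 to K3. Colistimethate, from which the antibiotic colistin is released, was given at 20 µM in one arm of the study, and the other arm was the control. The sources used here do not say which letter stands for which arm, so neither C nor K is called treated, and every difference is C relative to K. The labels do not say that the repeats were separate cultures, and p-values therefore reflect variation among sequenced libraries that may be technical.

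Metallothioneins are very small intracellular proteins in which cysteine recurs throughout the chain, and the cysteine sulphurs bind zinc and copper, and also cadmium. They buffer free zinc, and their genes are switched on by metal through the zinc-sensing transcription factor MTF1, which binds short metal response elements ahead of the start site. Glucocorticoids and oxidative stress are further known inducers. In the human genome the functional type 1 genes and MT2A lie in a cluster on chromosome 16, and breast cancer lines are known to differ in which of them they express.

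MT1E lies at chr16:56625475-56627112 on the plus strand of GRCh38, and the deposited position equals that of GENCODE release 29. Its main transcript has 3 exons, and no other annotated gene overlaps it on either strand. The nearest annotated gene, MT1M, begins 5121 bases further on. Coding sequences of MT1E, MT1F and MT1X are shown because their likeness bears on how reads can be told apart. Each runs 5′ to 3′ on the plus strand from start to stop codon. In MT1E the capitals mark the cysteine codons TGC and TGT, 20 of 61 codons. In MT1F and MT1X the capitals mark bases that differ from MT1E.
MT1E: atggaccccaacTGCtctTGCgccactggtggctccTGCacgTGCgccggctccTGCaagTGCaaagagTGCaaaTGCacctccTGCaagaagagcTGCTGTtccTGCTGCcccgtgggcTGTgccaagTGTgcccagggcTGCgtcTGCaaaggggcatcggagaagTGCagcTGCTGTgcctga
MT1F: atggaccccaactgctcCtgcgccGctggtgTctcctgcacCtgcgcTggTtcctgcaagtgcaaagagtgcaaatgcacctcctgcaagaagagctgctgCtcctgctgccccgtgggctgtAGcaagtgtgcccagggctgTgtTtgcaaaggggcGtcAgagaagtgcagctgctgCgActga
MT1X: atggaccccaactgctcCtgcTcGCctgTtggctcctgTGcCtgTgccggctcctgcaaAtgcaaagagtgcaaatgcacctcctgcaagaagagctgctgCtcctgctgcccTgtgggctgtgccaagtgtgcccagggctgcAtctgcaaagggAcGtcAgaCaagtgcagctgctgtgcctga
All 3 coding sequences have 186 bases and 20 cysteine codons. MT1F differs from MT1E at 15 bases (91.9% identity) and MT1X at 17 (90.9%). The coding sequence of MT1A, not shown, is closer to MT1E than either, with 10 differing bases (94.6%). Over whole transcripts the genes are easier to separate. Of the 75-base windows of MT1E, 1.425% occur in another annotated gene, mostly in MT1G, and of its 100-base windows 0.0% do. With 50-base windows the share is 7.10%, and none of those is in MT1X. The read length is not given in the sources used here. Reads from the shared stretches are uncertain in their assignment. For MT1X, 14.3% of 75-base windows recur elsewhere, mainly in AC026461.1, a transcript that overlaps it on the same strand.

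Depth over the listed genes ranged from 31438065 to 35946691 reads per library. The listed genes held between 67.1% and 67.9% of the TPM total, and the remaining genes were not analysed here. TPM scales reads by gene length and then to a common total per library. CPM scales reads by the library total, adjusted by the TMM factor used in the fit, and not by length. Transcripts of the mitochondrial genome took 3.21 ± 0.081% of listed reads in C and 5.41 ± 0.429% in K (SD, n = 3 each). With those genes left out of the fit, 494 genes passed in place of 508, each called gene named below still passed, and the MT1E log2 fold change was 0.58 as with them. Mesenchymal markers of the line were high, with MSN at 1078 ± 25.96 TPM in C and 955 ± 34.1 TPM in K. Of 5 tested markers of the line AXL rose (log2 fold change 0.21, adjusted p = 0.0318) and CAV1 fell (-0.37, adjusted p = 0.0118), 40.0% called against 5.61% of all tested genes. With limma on log2(TPM + 1) neither passed (adjusted p = 0.0621 for AXL and 0.0563 for CAV1). AXL was also lost without any single library but K2, and CAV1 without C1, K1 or K3 (adjusted p up to 0.107). Epithelial cadherin CDH1, which the line is known to lack, was at 0 reads in every library, and EPCAM was at 4.71 ± 0.406 TPM in C and 5.47 ± 0.812 TPM in K. Among the markers of blood, endothelial cells and fibroblasts given here other than SRGN, the highest mean in either letter was 2.47 TPM (COL1A1 in C). SRGN, a proteoglycan core protein of blood cells, was at 413 ± 11.95 TPM in C and 423 ± 1.31 TPM in K. CD3E, HBB and CDH5 were at 0 in both.

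MT1E was at 1201, 1228 and 1164 TPM in C1, C2 and C3, against 757, 810 and 816 TPM in K1, K2 and K3. The 3 C libraries were all above the 3 K libraries, and the lowest C value was 1.43 times the highest K value. The deposited read counts behind these levels were 20174, 20816 and 19256 in C and 12198, 14993 and 13071 in K, so that counting error was at most 0.905% of a value. The mean was 1198 ± 32.02 TPM in C and 794 ± 32.03 TPM in K (SD, n = 3 each), a difference of 404 TPM. Scaled to CPM the means were 608 ± 12.96 in C and 406 ± 15.8 in K. The fitted log2 fold change was 0.58 (SE 0.038), or 1.495-fold. In bulk RNA, a change in the number of cells that make the transcript and a change in the amount per cell cannot be told apart.

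**Figure D1:**
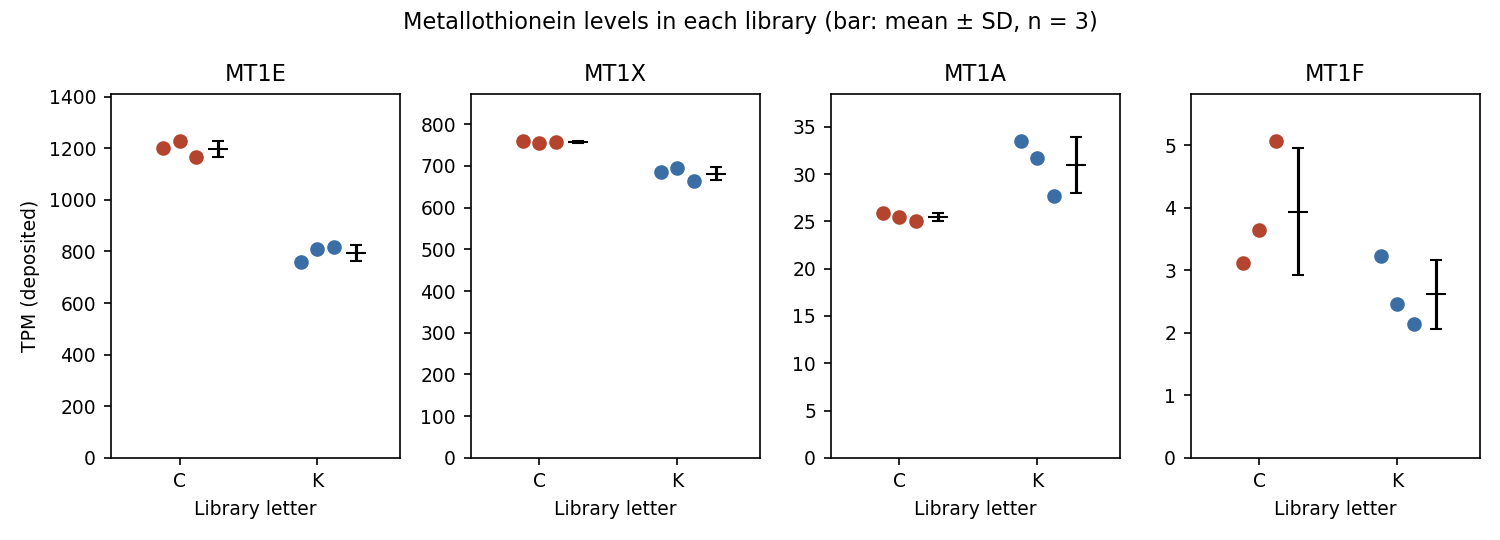
Deposited TPM (linear axes from 0, each panel with its own scale) of the 4 metallothioneins with reads, 1 point per library, with mean and SD at the right of each set of 3. MT1E lies between 1164 and 1228 TPM in C and between 757 and 816 TPM in K, while MT1X differs less, MT1A is lower in C and MT1F has few reads.

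MT1E is an abundant transcript of this line. By mean TPM over the 6 libraries it ranked 85 of 9057 tested genes, those left after genes with too few reads were removed. Among the 280 tested genes with an average expression at or above that of MT1E (8.99 log2 CPM), its log2 fold change towards C ranked 1, although some of those genes were lower in C by more. Among all tested genes it ranked 141. By the difference in TPM, C minus K, it ranked 4. These ranks describe the values by which MT1E was chosen. Within a letter MT1E was steady: the coefficient of variation of its CPM was 2.13% in C and 3.89% in K. The SD of log2 CPM within letters was 0.046, against a median of 0.047 over the 200 tested genes nearest to it in expression.

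**Figure D2:**
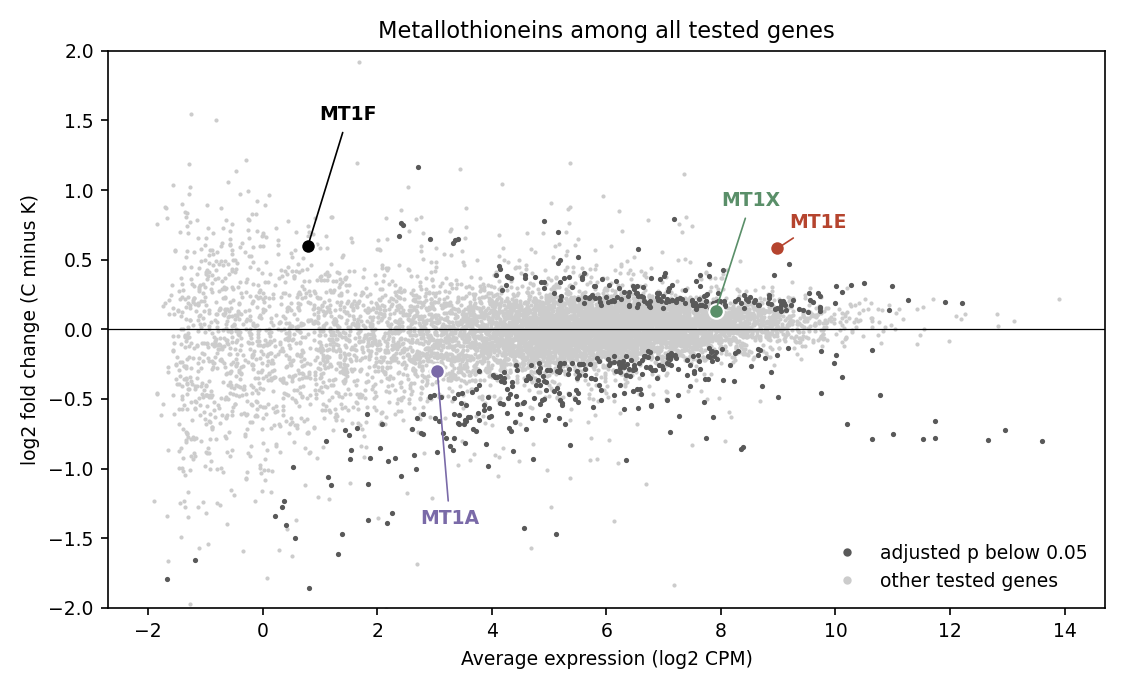
Log2 fold change (C minus K, vertical) against average expression (log2 CPM, horizontal) of every tested gene, with the 4 metallothioneins enlarged; dark grey genes passed an adjusted p of 0.05 and 18 genes lie beyond the plotted range. MT1E, at 0.58, stands above all other genes of its abundance or higher, some of which lie farther from 0 on the lower side.

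The rest of the metallothionein family was measured in the same libraries and was not used to choose MT1E. Of the other 12 names on the family list, 6 were in the table, and 3 of these had enough reads to test: MT1X, MT1A and MT1F. With 3 genes the count says little by itself. None of the 3 passed an adjusted p of 0.05, against 5.61% of all tested genes in edgeR's test (508 of 9057; 2.2% higher and 3.41% lower in C), although at an unadjusted p of 0.05 all 3 did (0.0055, 0.023 and 0.047), as did 27.0% of all tested genes. With DESeq2 in place of edgeR, 1 of the 3 passed, MT1X, against 12.4% of all genes, and with limma on log2(TPM + 1) 0 did, against 2.58%. Over all tested genes the balance of calls depended on scaling: 199 were higher and 309 lower in C, but 298 higher and 254 lower with an offset for GC content and length. MT2A, MT1G, MT1H, MT1L, MT3 and MT4 were not analysed here.

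MT1X, another type 1 isoform that binds metal in the same way, was the second most abundant of the measured family. It was at 760, 756 and 758 TPM in C1 to C3, against 685, 694 and 664 TPM in K1 to K3. The letters did not overlap, as was the case for 16% of tested genes in the direction of C by CPM. The difference was small, at 0.13 on the log2 scale (SE 0.033, adjusted p = 0.064), and over the alternatives tried its adjusted p ranged between 0.0207 and 0.185. DESeq2 gave the lowest of these. MT1A was at 25.9, 25.4 and 25.04 TPM in C, against 33.5, 31.7 and 27.7 TPM in K. Every C library was thus below every K library, as for 17.7% of tested genes in that direction, but MT1A did not pass (log2 fold change -0.30, SE 0.10, adjusted p = 0.125). MT1F had few reads, with 53, 62 and 84 in C and 50, 46 and 35 in K. Its TPM overlapped between the letters, from 3.11 to 5.07 in C and from 2.15 to 3.23 in K, and its log2 fold change of 0.60 had an SE of 0.24 (adjusted p = 0.179). MT1B, MT1M and MT1HL1 had 0 reads in all 6 libraries, which allows up to 0.0954 CPM at a floor of 3 reads in the shallowest library (counting error only).

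Within the measured family the mixture of isoforms differed between the letters. The order of the levels was the same in all 6 libraries: MT1E, then MT1X, then MT1A, then MT1F. MT1E made up 60.4, 61.0 and 59.6% of the summed TPM of these 4 genes in C, against 51.2, 52.7 and 54.0% in K. The C shares lay above the K shares in every library, by 7.71 percentage points on average. MT1E exceeded MT1X by a ratio of 1.58 ± 0.044 in C and 1.17 ± 0.061 in K (SD, n = 3 each), so the 2 leading isoforms were closer to each other in K. The summed TPM of all 4 genes was 1985 ± 30.7 in C and 1509 ± 29.1 in K. Without MT1E, the other 3 summed to 787 ± 1.98 TPM in C and 715 ± 18.3 TPM in K, a difference of 72.5 TPM beside the 404 TPM of MT1E. These shares contain the level that chose MT1E and were not tested.

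**Figure D3:**
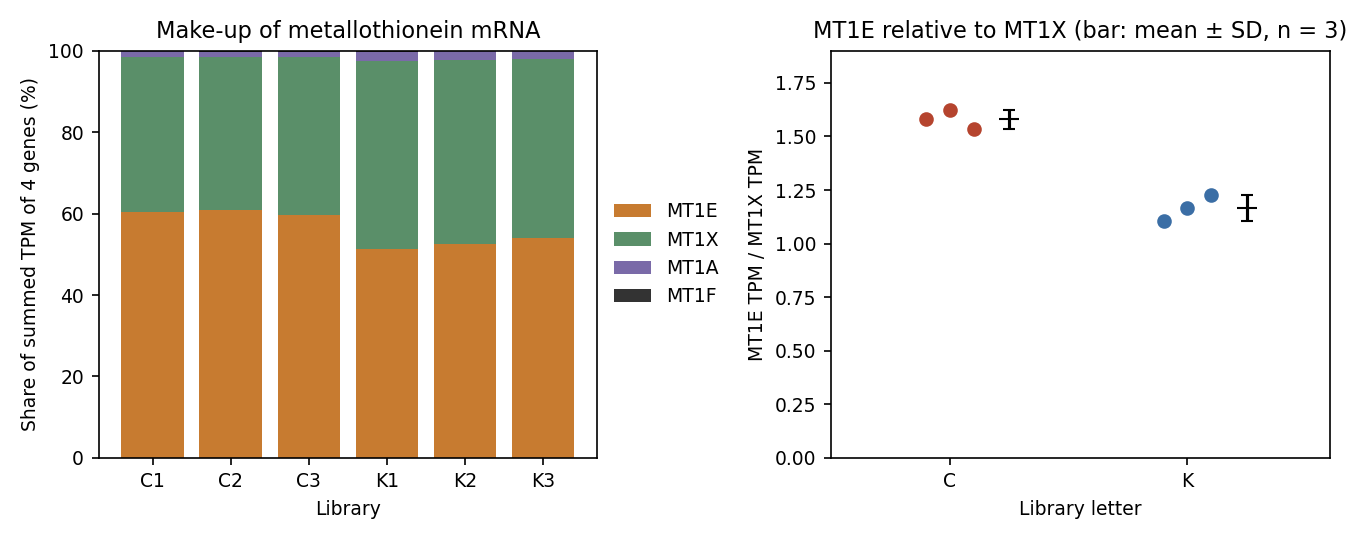
Left, share of the summed TPM of MT1E, MT1X, MT1A and MT1F held by each gene in each library (MT1F, at most 0.26%, is barely visible); right, ratio of MT1E to MT1X TPM per library with mean and SD. MT1E takes 59.6 to 61.0% in C and 51.2 to 54.0% in K, and the ratio is above 1.5 in each C library and at most 1.23 in each K library.

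MTF1, the metal-sensing activator of metallothionein genes, was expressed at a low level. Its TPM was 6.71, 6.39 and 6.18 in C, against 5.58, 5.46 and 6.13 in K. The lowest C library was just above the highest K library, and 16% of tested genes did not overlap in that direction by CPM. MTF1 did not pass (log2 fold change 0.15, SE 0.061, adjusted p = 0.177). Its RNA level does not measure its activity, which zinc controls at the protein. The metal response element core was searched as TGCACNC or TGCGCNC on both strands in the 250 bases ahead of RefSeq transcript starts (GRCh38.p14). Of 11 family names, 5 had a promoter in that set (MT1B, MT1H, MT1X, MT2A and MT4). MT1E was not among them. Of 35116 promoter windows, 24.8% held at least 1 match. MT1X held 4 matches, and 0.37% of all windows held as many or more. MT1H held 8 and MT2A held 7. The MT1X promoter is shown as that of the most abundant measured relative of MT1E, on the plus strand at chr16:56682220-56682423, ending just before the first transcript base annotated in GENCODE. Capitals mark the 4 matches; the third is on the minus strand.
MT1X promoter: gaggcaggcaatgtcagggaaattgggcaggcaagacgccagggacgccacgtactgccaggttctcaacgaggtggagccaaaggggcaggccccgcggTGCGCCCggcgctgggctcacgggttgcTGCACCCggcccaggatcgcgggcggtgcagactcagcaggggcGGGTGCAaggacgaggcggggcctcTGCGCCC
A match is a stretch of letters, not a measured binding site.

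Zinc transporters set the zinc that metallothioneins buffer. Of 13 tested zinc transport genes, 1 fell in C and none rose. The share called was 7.69%, against 5.61% of all tested genes, or 3.41% lower in C. The median log2 fold change was 0.135 (all tested genes -0.0044). At an unadjusted p of 0.05 in edgeR's test, 3 were higher and 2 lower in C, against 27.0% of all tested genes in either direction. DESeq2 called 2, both lower, against 12.4% of all genes in either direction. Limma on log2(TPM + 1) called 0, against 2.58%. SLC39A10, an importer of zinc across the plasma membrane, was at 17.5, 17.2 and 16.9 TPM in C, against 21.3, 28.2 and 26.9 TPM in K. It fell (log2 fold change -0.57, SE 0.104, adjusted p = 0.035). The letters did not overlap, as for 17.7% of tested genes in that direction by CPM. The call did not survive the loss of any single library but K1 (adjusted p up to 0.119), nor limma on TPM or the offset for GC content and length. SLC30A1, the zinc exporter that MTF1 is known to induce together with metallothioneins, is named after its values were seen. It was at 12.2, 12.8 and 13.1 TPM in C, against 10.7, 11.2 and 11.5 TPM in K. The letters did not overlap, as for 16% of tested genes in the direction of C by CPM. SLC30A1 did not pass (log2 fold change 0.17, SE 0.050, adjusted p = 0.0922). With an offset for GC content and length, added after the data were seen, it did (log2 fold change 0.31, adjusted p = 0.0371). SLC39A14, an importer of zinc, iron and manganese and also named after its values were seen, was split within K. It was at 70.8, 70.4 and 72.9 TPM in C and at 37.8, 40.6 and 63.1 TPM in K, and it did not pass (log2 fold change 0.74, SE 0.27, adjusted p = 0.146). Without K3 it did, with a log2 fold change of 1.148 and an adjusted p of 0.00291. SLC39A13, which moves zinc out of the secretory pathway and was the most abundant member by the mean over all 6 libraries, was at 68.2 ± 1.05 TPM in C and 62.2 ± 3.37 TPM in K (adjusted p = 0.203).

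Genes of copper and iron handling gave no calls in edgeR's test. Of 10 tested copper genes (chaperones, pumps and copper enzymes) 0 passed, with a median of 0.016 on the log2 scale, and of 9 iron genes 0 passed, with a median of 0.019, where 5.61% of all tested genes did. At an unadjusted p of 0.05, 1 copper gene and 2 iron genes passed, against 27.0% of all tested genes. DESeq2 called as many (1 and 2, against 12.4% of all genes), and limma on log2(TPM + 1) called 0 of either, against 2.58%. SOD1, the abundant copper and zinc superoxide dismutase, was at 431 ± 14.0 TPM in C and 417 ± 10.2 TPM in K (log2 fold change 0.03, adjusted p = 0.655). FTH1, the heavy chain of the iron store ferritin, was at 3465 ± 25.05 TPM in C and 3444 ± 64.6 TPM in K (adjusted p = 0.994). The sign of its difference, which was nearly nil, varied with the settings tried.

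Other known inducers of metallothioneins were followed through their own target genes. Of 14 tested NRF2 targets, which respond to oxidative stress, 4 rose in C and 0 fell, with a median of 0.036. The share called was 28.6%, against 5.61% of all tested genes, or 2.2% higher in C. Only 14 of the 22 genes on the NRF2 list were in the table. The list, like the others here, was chosen with earlier results of these data known, so its share is a description. At an unadjusted p of 0.05, 5 were higher and 0 lower in C, against 27.0% of all tested genes in either direction. DESeq2 called 5, all higher, against 12.4% of all genes, and limma on log2(TPM + 1) called 2, against 2.58%. TXNRD1, the thioredoxin reductase of the cytosol, was at 607, 559 and 560 TPM in C, against 460, 451 and 454 TPM in K, and rose with no overlap (log2 fold change 0.31, SE 0.031, adjusted p = 0.00764). PRDX1, a peroxidase that draws on thioredoxin, was at 751, 736 and 753 TPM in C, against 519, 612 and 562 TPM in K, again without overlap (log2 fold change 0.39, SE 0.060, adjusted p = 0.0264). By CPM, 16% of tested genes did not overlap in the direction of C. SRXN1, which repairs oxidised peroxiredoxins, rose less (log2 fold change 0.22, adjusted p = 0.0415), as did PGD of the pentose phosphate pathway (0.18, adjusted p = 0.0486), named after its values were seen. TXNRD1 still passed without each library in turn. PRDX1 and SRXN1 did so only without K2 (adjusted p up to 0.101 and 0.128 otherwise) and PGD in none of these fits. SRXN1 and PGD were also lost with limma on TPM and with the GC and length offset. With a block for the replicate number none of the 4 passed (lowest adjusted p 0.0946, for TXNRD1). GCLC and GCLM, the subunits of the rate-limiting enzyme of glutathione synthesis, also named after their values were seen, did not pass (log2 fold changes -0.05 and -0.11, the first of them 0.01 with the GC and length offset).

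Of 11 tested genes of the glucocorticoid response, 1 fell in C and 0 rose (9.09% called, against 5.61% of all tested genes, or 3.41% lower in C), and the median log2 fold change was -0.209. At an unadjusted p of 0.05, 5 were lower and 1 higher in C, against 27.0% of all tested genes in either direction. DESeq2 called 2, both lower, against 12.4% of all genes in either direction. The called gene was NR3C1, the glucocorticoid receptor itself (log2 fold change -0.23, SE 0.041, adjusted p = 0.0338). That fall was in the counts only: the TPM of NR3C1 was 20.0 ± 1.06 in C and 19.8 ± 1.43 in K, and limma on log2(TPM + 1) gave 0.01 (adjusted p = 0.941). It also failed to pass with the GC and length offset and in 5 of the 6 fits that each omit a library, all but the one without K2. ERRFI1, a feedback inhibitor of EGFR signalling and the most abundant of these genes, was at 136 ± 3.49 TPM in C and 131 ± 0.524 TPM in K (adjusted p = 0.725). Its log2 fold change of 0.02 was -0.0037 without C1.

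**Figure D4:**
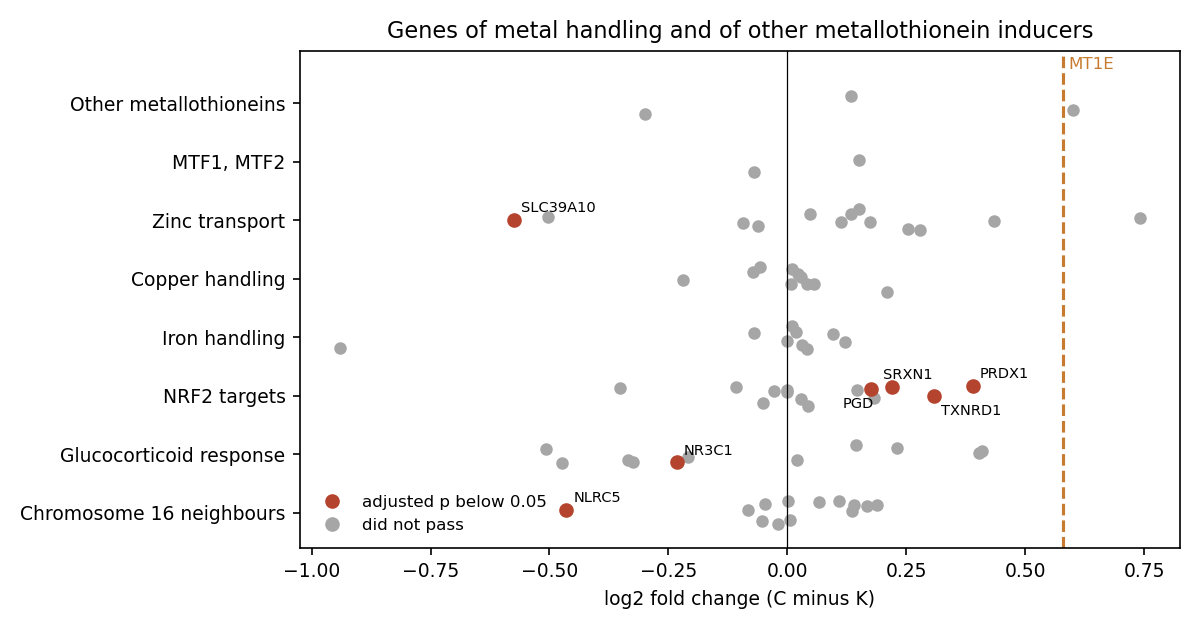
Log2 fold change (C minus K) of every tested member of each list, 1 point per gene, with red points past an adjusted p of 0.05; the dashed line marks MT1E at 0.58. The tested members of the copper and iron lists are all grey, and the red points are SLC39A10, NR3C1 and NLRC5 on the left and PGD, SRXN1, TXNRD1 and PRDX1 on the right.

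The genes that flank the metallothionein cluster on chromosome 16 are set beside MT1E. Whether a wider stretch of the chromosome moved with it was not tested. Of 13 tested neighbours, 1 fell in C and 0 rose (7.69% called, against 5.61% of all tested genes, or 3.41% lower in C). Their median was 0.005 on the log2 scale. At an unadjusted p of 0.05 in edgeR's test, 2 were higher and 2 lower in C, against 27.0% of all tested genes in either direction. DESeq2 called 2, 1 higher and 1 lower, against 12.4% of all genes. Limma on log2(TPM + 1) called 0, against 2.58%. The gene called by edgeR was NLRC5, an interferon-inducible activator of MHC class I genes, which starts 364 kb from MT1E. It was at 23.5, 27.6 and 26.4 TPM in C, against 36.7, 37.3 and 31.4 TPM in K, and the letters did not overlap (log2 fold change -0.47, SE 0.034, adjusted p = 0.00219). With limma on log2(TPM + 1) NLRC5 missed the threshold, at an adjusted p of 0.0735. The nearest tested neighbours outside the cluster, named for their position, were BBS2, a ciliary trafficking protein at -159 kb from the MT1E start (log2 fold change 0.14, adjusted p = 0.364), and NUP93, a nuclear pore protein at 105 kb (0.11, adjusted p = 0.178). POLR2C, an RNA polymerase II subunit and the most abundant neighbour, did not pass at 0.19 (SE 0.056, adjusted p = 0.0982) but did with DESeq2 and without K2 (lowest adjusted p 0.0312).

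**Figure D5:**
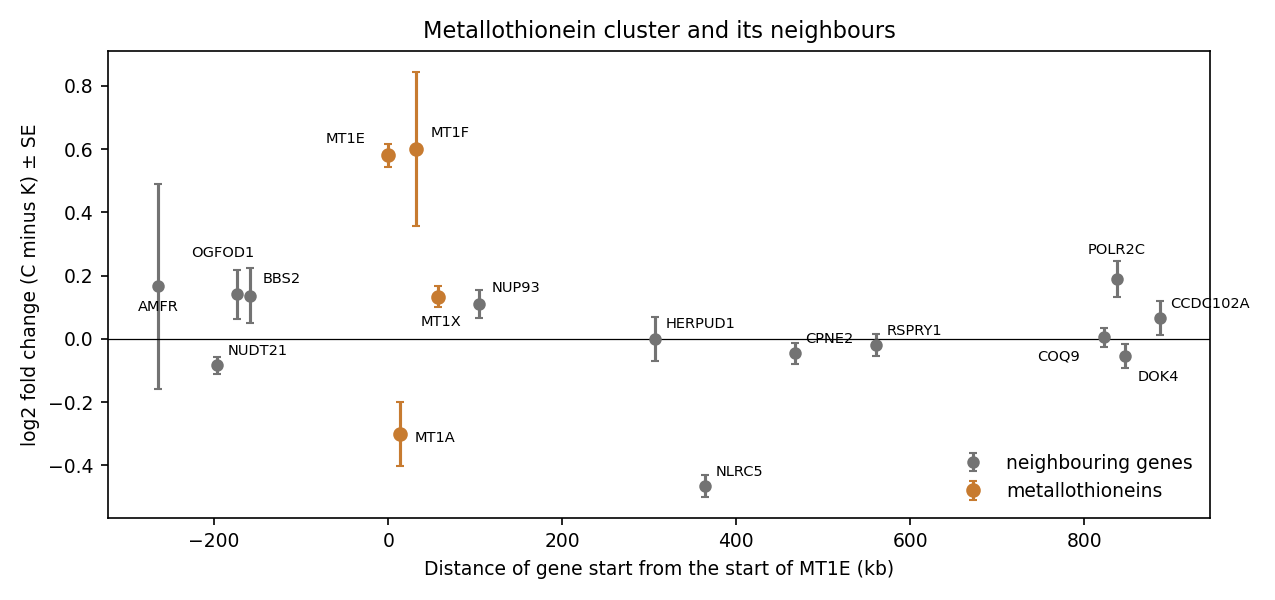
Log2 fold change (C minus K, with SE) of tested genes by the distance of their start from that of MT1E in kb; metallothioneins are orange and other genes grey. MT1E at 0.58 and MT1A at -0.30 lie 13.2 kb apart, MT1F has a wide error, and among the flanking genes NLRC5 at -0.47 lies farthest from 0.

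The genes whose pattern over the 6 libraries was most like that of MT1E were taken by Pearson's r of log2 CPM, among 4530 other genes with at least median expression. These values share the libraries and the split between the letters, so r is high for any gene that is higher in C with little spread, and 140 genes reached 0.95. Because the choice favours such genes, their values are given as a description without a test. The closest were DDX18, an RNA helicase of the nucleolus (r = 0.998), WDR3, a factor of small ribosomal subunit assembly (0.997), and LSM14B, an mRNA-binding protein (0.996). Their log2 fold changes were 0.10, 0.15 and 0.09, against 0.58 for MT1E. With the GC and length offset DDX18 was at 0.20 and WDR3 at 0.24, and with limma on log2(TPM + 1) LSM14B was at 0.16. Next came SLC25A24, a mitochondrial carrier of ATP and phosphate (r = 0.996), the matrix-associated protein CTGF (0.994) and the decoy TRAIL receptor TNFRSF10D (0.992). SLC25A24 was at 36.1, 38.1 and 35.1 TPM in C, against 24.2, 25.6 and 24.7 TPM in K. Its log2 fold change of 0.58 (SE 0.036) was the same as that of MT1E to 2 decimals, at a far lower level. CTGF averaged 393 ± 8.44 TPM in C and 281 ± 2.96 TPM in K, and TNFRSF10D 96.9 ± 0.912 TPM in C and 73.6 ± 0.127 TPM in K (SD, n = 3 each), with log2 fold changes of 0.47 and 0.38.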

How the data were processed

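RNA was extracted with Trizol and libraries were made with a YEASEN mRNA kit, per the labels' protocols. The authors deposited 1 table with reads per gene as counts (whole numbers, not normalised), TPM and FPKM, per the file headers. Tools listed in the submitters' processing notes were HISAT2 2.1.0, StringTie 1.3.3b, Trimmomatic and FastQC 0.11.2, with the build GRCh38. Which tool counted, and whether strand was used, is not given in the sources used here. 1 row without values was left out.

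The test was edgeR's quasi-likelihood test (version 4.0.16, R 4.3.3) of C against K on the counts, without covariates, after filterByExpr (minimum count 10, minimum total 15) and TMM scaling. Benjamini-Hochberg adjustment ran over all 9057 tested genes, with a threshold of 0.05. SE is the size of the log2 fold change divided by the square root of F. The steps were tested on simulated data. FPKM was only copied. Each pair of libraries differed beyond counting noise (chi-square per degree of freedom at least 22.4). Intervals and floors cover counting error only.

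MT1E and the gene lists were chosen with earlier results of these data known. Named genes were all measured metallothioneins and MTF1, from each list up to 3 called members by smallest p and the member with the highest mean, and the 6 genes most like MT1E by r over 6 libraries (log2 CPM, prior count 2). The most abundant member of each marker list was added. Alternatives were a replicate block, other scalings and filters, DESeq2 1.42.0, limma 3.58.1 on log2(TPM + 1) for genes with a mean TPM of at least 1, and leaving out each library. 2 more were chosen after seeing the data: no mitochondrial-genome genes, and a GC and length offset. Windows and coding sequences came from GENCODE release 29, promoters from RefSeq. Some items are not reported here.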

Additional observations from a re-analysis of the deposited data

How the results depend on the processing

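The log2 fold change of MT1E stayed within its spread between libraries under every alternative, from 0.55 to 0.60 when a library was left out, 0.59 with limma on log2(TPM + 1) or log2(TPM + 0.1), and 0.58 with the replicate block. Its share of the family's TPM differed by 6.99 to 8.41 percentage points when a library was left out and by 7.05 as a share of CPM. Same-numbered libraries did not deviate together (correlations -0.089, 0.032 and -0.004), so these values show no pairing by number. They cannot show that the repeats were made without pairing, and the labels do not say.

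Counts moved more. With the replicate block 25 of 9057 genes passed (4 higher and 21 lower in C), against 508 without it. Of 23 zinc and copper genes 0 passed and of 33 glucocorticoid, NRF2 and iron genes 0, against 1 and 5 without it. NLRC5 still passed with the block, while TXNRD1 (adjusted p = 0.0946), PRDX1, SRXN1, PGD, SLC39A10, NR3C1, AXL and CAV1 did not. DESeq2 called 1039 genes (526 higher, 513 lower), 12.4% of those it tested. It called 1 of 3 other metallothioneins, 3 of 23 zinc and copper genes and 2 of 13 flanking genes. Of 31 glucocorticoid, NRF2 and iron genes it called 9. Limma on log2(TPM + 1) called 209 genes, 2.58% of those tested. Of 23 zinc and copper genes it called 0, of 31 glucocorticoid, NRF2 and iron genes 2, and of 13 flanking genes 0. With the GC and length offset 552 of 9048 genes passed. Of 23 zinc and copper genes 2 passed with it, both higher in C, where the 1 without it was lower. Leaving out a library gave between 77 and 533 genes, of at most 9140 tested. K2 left out gave 533, while omitting C1 gave 77, K3 99, C3 109, C2 116 and K1 117. Those fits called 0 to 1 of 23 zinc and copper genes and 1 to 4 of 33 glucocorticoid, NRF2 and iron genes. They also called 1 to 2 of 13 flanking genes and 0 of 3 other metallothioneins. The cause of these moves was not tested. The fits that leave out a library also had fewer samples, and the effect of that was not tested either.

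Direction turned for 1 called gene, NR3C1 (0.0111 with limma, against -0.23). It also turned for 5 genes that had not passed, FTH1 (-0.0014 without filter, -0.0024 at a mean of 50 counts, -0.0008 without mitochondrial genes, -0.0113 with the offset, and -0.0141 to 0.018 when a library was left out), ERRFI1 (-0.0037 to 0.0349 when a library was left out), COL1A1 (0.0164) with limma, and SRGN (0.0875) and GCLC (0.0116) with the offset. Over 35 named genes and 524 refits, 440 kept direction and side of the threshold. Of the tested family, MT1F had the fewest reads (35 to 84 per library).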
